A study of Mus musculus with 5 samples.

Results

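The highly methylated CpG islands of the mouse autosomes were described across 5 libraries of germ cells, germ cell-like cells and embryonic stem cells. Members were chosen by their mean CpG methylation level: an island of chromosomes 1 to 19 was taken when all 5 libraries listed it and the mean of its 5 levels was at least 30%. This left 365 of 13845 autosomal islands listed in all 5 libraries, or 2.64%. The remaining 13480 islands are called the other islands here.

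Methylation was read by reduced representation bisulfite sequencing, in which MspI digestion enriches CpG-rich fragments before bisulfite conversion. All cells carried the C57BL6 background. The library pESC-PGCLC held primordial germ cell-like cells induced from a parthenogenetic embryonic stem cell line, whose genome comes from the egg only. The library ESC-PGCLC held the same kind of cell induced from a female embryonic stem cell line. Both inductions used 46 h of epiblast-like culture with activin A and bFGF, then 4 days of floating culture with BMP4, LIF, SCF and EGF, and cells positive for both CD61 and SSEA1 were sorted. The library PGC held primordial germ cells taken with SSEA1 magnetic beads from fetal gonads at E12.5, for which the labels state neither the sex nor the number of fetuses. The libraries pESC and female ESC held the stem cell lines, grown on feeder cells in medium with serum and LIF. Each group had 1 library and each stem cell group 1 line, so no difference below has a replicate error or a test, and each compares 2 libraries rather than 2 conditions. The cell type of a library could not be checked, because methylation alone was measured and no expression marker was read.

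CpG islands are stretches rich in CpG sites, and most of them lie at gene starts and stay free of methylation in nearly all cells. A minority is methylated: islands inside or at the end of genes, islands of genes reserved for the germline, and imprinted control regions, which carry methylation on the copy from 1 parent only. Primordial germ cells erase most of their DNA methylation on the way into the gonad, and the reset of imprinted regions is part of that process.

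Among the members whose upstream sequence was at hand, those at germline genes show what a methylated gene-start island looks like. RefSeq promoter windows on GRCm38.p6 overlapped 11 of the 32 gene-start members by at least 100 upstream bases, in 16 stretches. The stretches below lie upstream of the outermost listed start of the named gene and inside the deposited island. Slc25a31 (a testis-specific mitochondrial ADP/ATP carrier), Fkbp6 (a co-chaperone of the piRNA pathway) and Dpep3 (a testis dipeptidase) are shown because they are the germline-list members with such a stretch upstream of every listed start. Another germline-list member, Syce3, had a stretch of 123 bases with 10 CpG sites that lies downstream of another listed start; it is not printed and held none of the 3 motifs below. Tmem267 is shown beside them as a long methylated gene-start island outside those lists. Its printed stretch lies downstream of the start of 3110070M22Rik, which shares the island on the other strand. Capitals mark CpG sites, the bases whose methylation was measured.
Slc25a31 (chr3:40708699-40708870, plus strand): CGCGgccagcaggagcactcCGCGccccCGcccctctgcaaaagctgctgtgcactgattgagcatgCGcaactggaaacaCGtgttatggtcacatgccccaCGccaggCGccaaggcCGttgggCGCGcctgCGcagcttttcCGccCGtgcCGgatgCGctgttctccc
Fkbp6 (chr5:135350045-135350155, minus strand): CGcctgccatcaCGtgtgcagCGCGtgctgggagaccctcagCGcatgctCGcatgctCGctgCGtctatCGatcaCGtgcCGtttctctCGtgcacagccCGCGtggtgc
Dpep3 (chr8:105979420-105979549, minus strand): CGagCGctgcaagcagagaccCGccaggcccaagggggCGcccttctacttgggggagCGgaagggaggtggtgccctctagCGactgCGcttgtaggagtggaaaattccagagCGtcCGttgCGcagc
Tmem267 (chr13:119487973-119488085, plus strand): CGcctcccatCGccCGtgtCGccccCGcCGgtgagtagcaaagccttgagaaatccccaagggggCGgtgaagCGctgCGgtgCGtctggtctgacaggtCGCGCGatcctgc

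These stretches held 17 CpG sites in Slc25a31, 14 in Fkbp6, 10 in Dpep3 and 13 in Tmem267. A whole 250-base upstream window holds a median of 6 CpG sites over all 32851 RefSeq windows of the table. The letters CACGTG, which read the same on both strands, were in 4 of the 16 stretches and in 6.02% of all windows. These 4 lay at Slc25a31, Gm24463 and Fkbp6, with the Fkbp6 stretches overlapping. The letters TGCCGC, or GCGGCA on the other strand, were in 3 of the 16 stretches, at Fkbp6 and Gm24463, and in 8.68% of all windows. The letters GCGGGAA, or TTCCCGC on the other strand, were in none of the 16 stretches and in 3.82% of all windows. Most stretches are shorter than a window and some overlap at a gene with several starts, and a letter shared by overlapping motifs was counted for each. The stretches come from CpG islands and the windows were not limited to islands. Neither the CpG counts nor the shares are therefore like for like. A match is a description of letters, and the absence of a match says only that these letters are not in that stretch.

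The median member stood at an intermediate level in every library, and the level differed by library. The median level was 46.6% in pESC-PGCLC, 49.6% in ESC-PGCLC, 43.9% in PGC, 50.4% in pESC and 56.9% in female ESC. The other islands had medians of 1.63% in pESC-PGCLC, 1.63% in ESC-PGCLC, 1.46% in PGC, 1.47% in pESC and 1.53% in female ESC. Among the members, female ESC was thus the highest library and PGC the lowest, while the medians of the other islands lay within a fraction of a point of each other.

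Individual members ran from 17.8% to 84.4% in pESC-PGCLC, from 1.03% to 87.8% in ESC-PGCLC, from 20.9% to 86.4% in PGC, from 24.3% to 87.1% in pESC and from 2.01% to 89.2% in female ESC. No member was at exactly 0% or 100% in any library. A level of at least 70% was reached by 34 members in pESC-PGCLC, 55 in ESC-PGCLC, 13 in PGC, 59 in pESC and 97 in female ESC. Just inside the threshold stood islands in Itpr3 with a mean of 30.2%, at Pias4 with 30.3% and in Ppp1r16b with 30.3%. Just outside it stood islands in Gpatch2l and Nbeal2, both with 29.9%, and in Rbm47 with 29.8%.

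**Figure D1:**
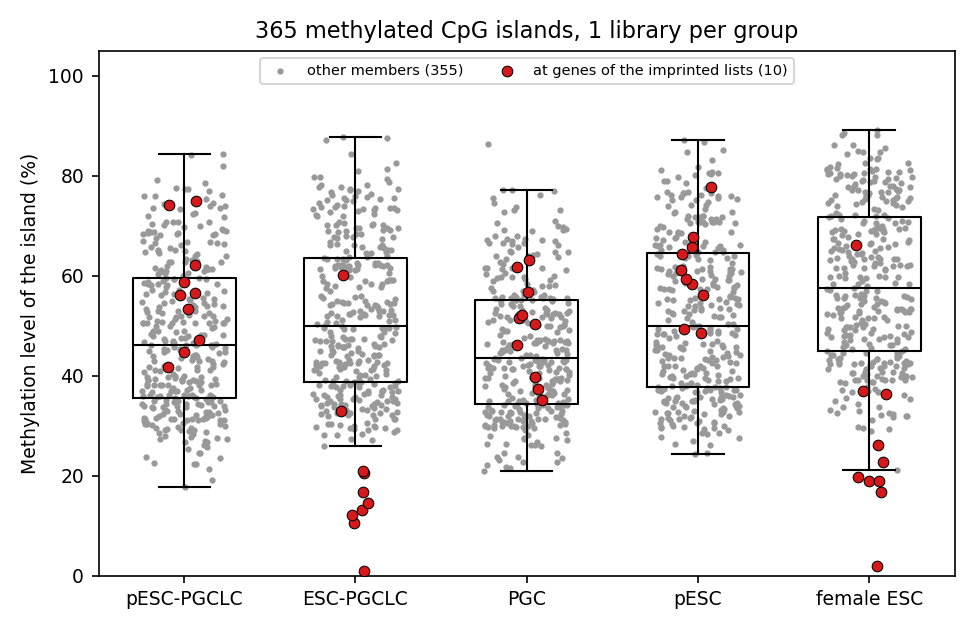
Methylation level in percent (vertical axis) of the 365 highly methylated islands in each of the 5 libraries (horizontal axis), 1 point per island, with the 10 imprinted-gene islands in red and a box at the quartiles of the other 355 (line at the median, whiskers to the farthest point within 1.5 box lengths). Most of the cloud sits high in female ESC and low in PGC, while the imprinted islands sit low in ESC-PGCLC and female ESC, except the second Trappc9 island at 60.2% and 66.2%.

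The highest and the lowest library recurred at most members. Female ESC was the highest of the 5 libraries at 299 of the 365 members, and PGC was the lowest at 233. Both held at once at 205 members. The positions in between were less fixed: pESC lay above ESC-PGCLC at 178 members, and the complete order of female ESC, pESC, ESC-PGCLC, pESC-PGCLC and PGC was found at 86. The gap between the highest and the lowest library had a median of 14.9 points. It was under 10 points at 76 members and at least 25 points at 33, of which 9 lay at imprinted genes. No count of rank or gap was made over all islands, of which 59.9% were lower in PGC than in female ESC.

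Position and length differed between the members and the other islands. Of the members, 244 (66.8%) were intragenic, that is, inside a RefSeq gene and farther than 1000 bp from either gene end. Of the other islands, 1443 (10.7%) were intragenic. Gene starts held 32 members (8.77%) and 9177 other islands (68.1%). Gene ends held 22 members (6.03%) and 345 other islands (2.56%). The ends of genes whose strand was not listed, many of them pseudogenes and small RNA genes, held 52 members (14.2%) and 2081 other islands (15.4%). Intergenic islands were 15 members (4.11%) and 434 others (3.22%).

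Read the other way, highly methylated islands were 14.5% of all intragenic islands and 5.99% of those at gene ends, but 0.347% of those at gene starts. Members were also short. Their median length was 274 bp, against 616 bp for the other islands, and 290 members (79.5%) but 3257 other islands (24.2%) were under 400 bp. The share of highly methylated islands was 8.18% under 400 bp, 1.02% from 400 bp to under 800 bp and 0.355% at 800 bp or more.

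Position classes differed within 1 length class too. Under 400 bp, 199 of 848 intragenic islands were members (23.5%), against 16 of 158 at gene ends (10.1%) and 20 of 1730 at gene starts (1.16%). Intragenic members, with a median of 271 bp, were shorter than the other intragenic islands, with 440 bp. The share of members also varied by chromosome, from 3 of 411 islands on chromosome 16 (0.73%) to 35 of 813 on chromosome 8 (4.31%).

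**Figure D2:**
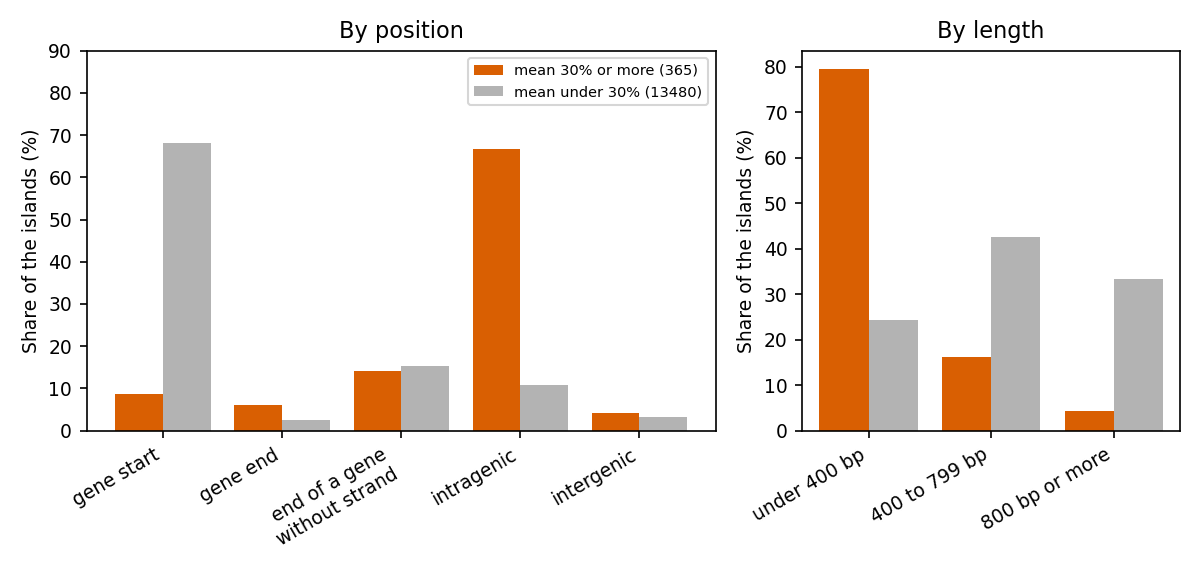
Share in percent (vertical axes) of the 365 members and of the 13480 other islands in each position class (left) and length class in bp (right). Members are mostly intragenic (66.8%) and under 400 bp (79.5%), whereas the other islands are mostly at gene starts (68.1%).

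The genes that hold an intragenic member mostly had an unmethylated island at their own start. Of 234 such protein-coding genes, 147 had a measured start island, and 143 of those start islands had a mean level under 10%. A low start island is not particular to these genes: of all 9209 gene-start islands, 0.347% were members. The median start island stood at 1.58% in pESC-PGCLC, 1.60% in ESC-PGCLC, 1.45% in PGC, 1.45% in pESC and 1.50% in female ESC. A start island of 30% or more was found at 1 host gene, Fat1, where it belongs to an internal start. The start of 58 of these host genes had no strand in the promoter table and was not assessed.

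Several genes held more than 1 member, and they show how the level turns along a gene. Fat1, which encodes a giant atypical cadherin, held 5 members among 8 measured islands on chromosome 8. Its 2 islands of lowest coordinate were near 1% in every library, and its last measured island ran from 7.72% to 15.5%. Between them, the 5 members had means from 38.2% to 68.6%. The 966-bp member of Fat1 had 73.7% in pESC-PGCLC, 77.7% in ESC-PGCLC, 57.9% in PGC, 68.2% in pESC and 65.3% in female ESC, so that here both germ cell-like libraries lay above their stem cell lines.

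Plec, which encodes plectin, a linker of the cytoskeleton, held 4 members among 7 measured islands. The longest member of all, 5176 bp inside Plec, had 30.2% in pESC-PGCLC, 29.5% in ESC-PGCLC, 29.9% in PGC, 30.6% in pESC and 33.0% in female ESC. The 5 libraries were nearly level there, although a neighbouring 362-bp member of Plec had 61.6% in pESC-PGCLC, 66.1% in ESC-PGCLC, 52.35% in PGC, 65.5% in pESC and 68.1% in female ESC. The 3 remaining Plec islands stayed between 0.755% and 2.69%.

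Spen, a transcriptional repressor that binds Xist RNA, and Jag2, a Notch ligand, each held 3 members beside an unmethylated island at the start. The 2601-bp start island of Spen ran from 1.40% to 1.72%, and its 3 members had levels between 28.2% and 61.6%. The 1577-bp start island of Jag2 ran from 1.08% to 1.34%, and its members had levels between 34.4% and 64.3%. Tet3, a dioxygenase that oxidises 5-methylcytosine, carried 2 members and 2 start islands below 4%. The 259-bp member of Tet3 had 70.8% in pESC-PGCLC, 73.6% in ESC-PGCLC, 66.1% in PGC, 75.2% in pESC and 77.9% in female ESC.

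**Figure D3:**
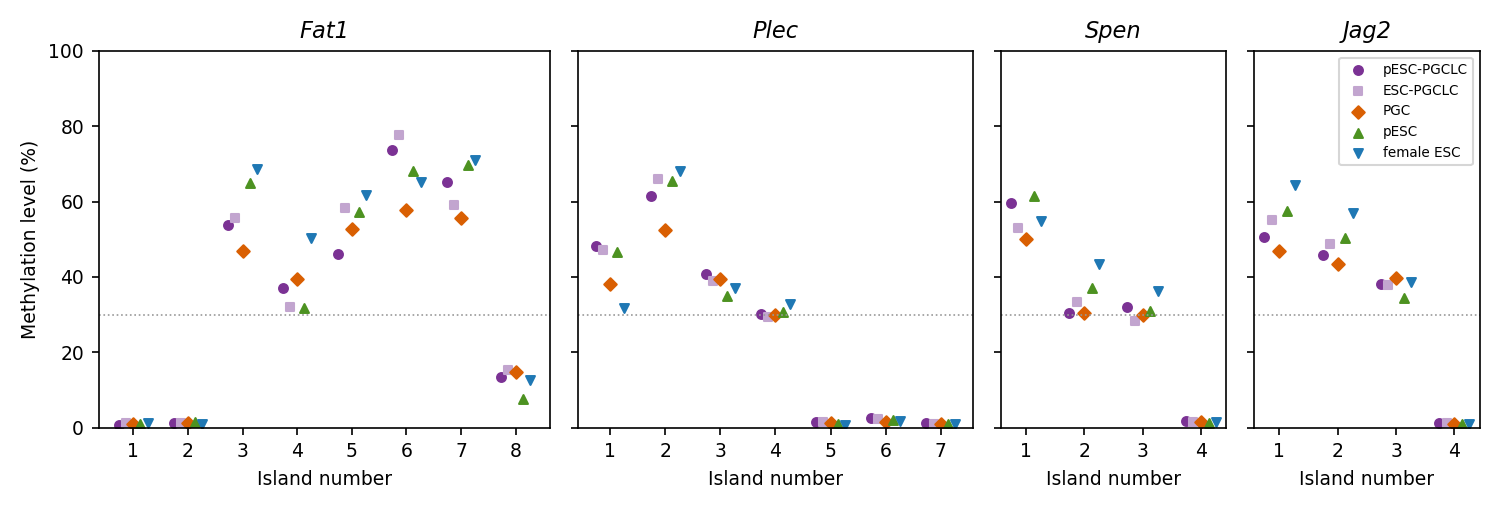
Methylation level in percent (vertical axes) of the measured islands in Fat1, Plec, Spen and Jag2, numbered along the chromosome (horizontal axes), with 1 marker per library and a dotted line at 30%. Islands near 1% and members around or above 30% lie in the same gene in all 5 libraries.

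PGC against female ESC gave the widest difference over the members. The median difference, PGC minus female ESC, was -13.5 points with quartiles of -17.1 and -8.65, and 338 of 365 members were lower in PGC. Over all 13845 islands the median difference was -0.0906 points, and 59.9% were lower in PGC. PGC was at least 10 points lower at 250 members (68.5%) and at least 10 points higher at 10. The background over all islands was 2.23% lower and 0.195% higher by that size. These backgrounds include the members, and an island near 2% cannot fall by 10 points, so the counts describe the chosen islands and are not set against chance.

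At 25 points, PGC was lower at 15 members and higher at 5, against 0.13% and 0.065% of all islands. The islands that were lower by 25 points lay in or at Lhx9 (a LIM homeobox factor of the gonad), Tbx5 (a T-box factor of heart and forelimb), Smad9 (a BMP signal transducer), Kcnd3 (a potassium channel), Ank3 (ankyrin-G), Tubb1, Tmem125, Lrrc8b, Zfp398, Clstn2 and Gm16372, and 4 had no gene. Tmem125 had 51.8% in PGC and 88.1% in female ESC. Of these 15 islands, 14 were shorter than 400 bp. The 5 that were higher in PGC lay at Airn, Kcnq1ot1, Gnas and Peg13, which are imprinted, and at Ocstamp, a gene of osteoclast fusion.

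Both stem cell lines differed from each other by less. The median difference, pESC minus female ESC, was -6.29 points with quartiles of -9.56 and -3.56, against -0.077 over all islands. pESC was lower at 332 members (91.0%) and at 58.0% of all islands. At least 10 points separated 78 members that were lower in pESC (21.4%) and 11 that were higher, with backgrounds of 0.86% and 0.181%. At 25 points, 9 were higher in pESC and 3 lower, with backgrounds of 0.101% and 0.0289%. Of the 9 higher islands, 8 lay at imprinted genes and the last in Polrmt, the mitochondrial RNA polymerase. The Polrmt island had 50.5% in pESC-PGCLC, 62.6% in ESC-PGCLC, 42.8% in PGC, 52.2% in pESC and 21.0% in female ESC, and female ESC alone stood low.

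PGC minus pESC had a median of -6.58 points with quartiles of -10.2 and -2.33, against -0.0341 over all islands. PGC was lower at 316 members (86.6%) and at 53.4% of all islands. PGC was lower by at least 10 points at 97 members and higher at 4, with backgrounds of 0.809% and 0.173%. At 25 points, Gm16372 and the shorter Gnas island were lower in PGC and Ocstamp was higher, with backgrounds of 0.0217% and 0.0289%. The Ocstamp island had 22.4% in pESC-PGCLC, 30.2% in ESC-PGCLC, 51.8% in PGC, 24.5% in pESC and 26.2% in female ESC, with PGC the high library. Its mean was 31.0% over the 5 libraries and 25.8% without PGC, so it was a member only through its level in PGC.

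Both germ cell-like libraries lay below their own stem cell lines at most members. ESC-PGCLC minus female ESC had a median of -6.11 points with quartiles of -9.48 and -3.34, against 0.072 over all islands. ESC-PGCLC was lower at 325 members (89.0%) and at 42.5% of all islands. ESC-PGCLC was lower by at least 10 points at 81 members (22.2%) and higher at 4, with backgrounds of 0.881% and 0.0578%. At 25 points it was lower at 4, in Lmtk3, Clstn2, Gm16372 and an island without a gene, and higher at Polrmt, with backgrounds of 0.0433% and 0.00722%. The Clstn2 island had 32.7% in pESC-PGCLC, 42.9% in ESC-PGCLC, 49.1% in PGC, 49.3% in pESC and 80.3% in female ESC.

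pESC-PGCLC minus pESC had a median of -3.86 points with quartiles of -6.15 and -0.901, against 0.14 over all islands. pESC-PGCLC was lower at 295 members (80.8%) and at 36.5% of all islands. pESC-PGCLC was lower by at least 10 points at 33 members (9.04%) and higher at 1, with backgrounds of 0.325% and 0.0722%. At 25 points it was lower at 2 members and higher at 0, with backgrounds of 0.0217% and 0.00722%. The inductions share no library, so their changes may be set side by side: both were negative at 276 members and both reached -10 points at 13. With 325 and 295 of 365 members negative in the single inductions, most members had to be negative in both. The 276 is therefore not read as agreement, and no such count was made over all islands. Across the 355 members away from imprinted genes the Pearson correlation of the changes was 0.302, a description over islands of 4 libraries with unknown depth. Whether the inductions differ was not tested.

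Set against PGC, both germ cell-like libraries were higher at most members and also at the majority of all islands. ESC-PGCLC minus PGC had a median of 6.59 points with quartiles of 2.37 and 10.3, against 0.185 over all islands. ESC-PGCLC was higher at 312 members. It was lower at 14.5% of members and at 30.7% of all islands. ESC-PGCLC was higher by at least 10 points at 101 members and lower at 14, with backgrounds of 0.787% and 0.246%. At 25 points 1 member was higher, at Ppp1r2-ps5, and 7 were lower, all at imprinted genes, with backgrounds of 0.00722% and 0.0867%.

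By its median, pESC-PGCLC stood closer to PGC than ESC-PGCLC did, a difference that was not tested. pESC-PGCLC minus PGC had a median of 3.18 points with quartiles of -0.0426 and 5.73, against 0.172 over all islands, and 273 members were higher. pESC-PGCLC was lower at 25.2% of members, near the 31.9% of all islands. It was higher by at least 10 points at 19 members and lower at 8, with backgrounds of 0.173% and 0.152%. At 25 points 0 members were higher and 1, at Ocstamp, was lower, with backgrounds of 0% and 0.0217%.

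pESC-PGCLC minus ESC-PGCLC had a median of -3.64 points with quartiles of -6.75 and -0.356, against -0.00986 over all islands. pESC-PGCLC was lower at 285 members (78.1%) and at 51.1% of all islands. It was lower by at least 10 points at 39 members (10.7%) and higher at 14, with backgrounds of 0.339% and 0.173%. At 25 points 9 members were higher in pESC-PGCLC, all at imprinted genes, and 0 were lower, with backgrounds of 0.0795% and 0%. The comparisons above reuse the same 5 libraries and are not independent of each other.

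**Figure D4:**
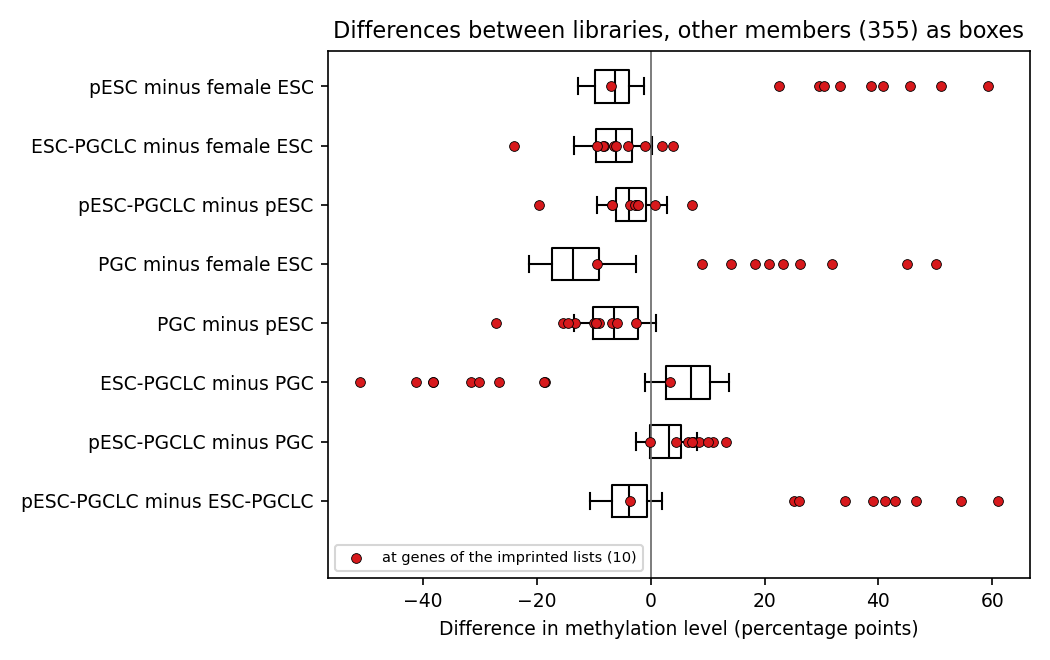
Difference in methylation level in percentage points (horizontal axis) for each of the 8 comparisons (vertical axis), first library minus second, with a box at the median and quartiles of the 355 non-imprinted members, whiskers to the outer deciles, and the 10 imprinted-gene islands in red. PGC minus female ESC has the box farthest to the left, and 9 of the 10 imprinted islands lie apart on the positive side in pESC minus female ESC and in pESC-PGCLC minus ESC-PGCLC, the exception being the second Trappc9 island.

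PGC lay below female ESC in every position class. PGC minus female ESC had a median of -14.1 points at gene starts, -14.6 at gene ends, -11.4 at ends of genes without strand, -13.4 at intragenic and -17.4 at intergenic members. Intergenic members had the highest medians, 52.0% in pESC-PGCLC, 61.7% in ESC-PGCLC, 51.2% in PGC, 60.5% in pESC and 69.8% in female ESC. Gene-start members had 45.4% in pESC-PGCLC, 45.8% in ESC-PGCLC, 42.6% in PGC, 51.1% in pESC and 54.4% in female ESC. These 32 include 4 islands at imprinted genes. The nearly equal medians of the germ cell-like libraries depend on them. Over the 28 gene-start members away from imprinted genes, the median was 43.4% in pESC-PGCLC and 48.75% in ESC-PGCLC. The median difference, pESC-PGCLC minus ESC-PGCLC, was -6.01 points over all 32 and -7.11 over the 28.

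Members of 800 bp or more had a narrower gap and also lower levels. Away from imprinted genes, PGC minus female ESC had a median of -13.8 points under 400 bp, -13.4 from 400 bp to under 800 bp and -6.29 at 800 bp or more. The median gap between the highest and lowest library was 14.9 points in the shortest class, 14.0 in the middle class and 8.24 in the longest. A gap of at least 25 points was found at 22 of 288 non-imprinted members under 400 bp, at 2 of 54 from 400 bp to under 800 bp and at 0 of 13 at 800 bp or more. Median levels of these members in female ESC were 59.6% under 400 bp, 54.0% in the middle class and 39.4% at 800 bp or more. The read depth of short and long islands is not in the files. The parts of depth and of level in the narrower gap were not tested.

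The narrowest gaps were found at islands of low to moderate level within the members. Pias4, a SUMO ligase, had a lowest level of 29.7% in female ESC and a highest of 31.1% in pESC, a gap of 1.37 points. Ehmt2, the histone H3K9 methyltransferase G9a, had 56.4% in pESC-PGCLC, 54.4% in ESC-PGCLC, 52.4% in PGC, 55.4% in pESC and 55.5% in female ESC. Ahdc1, Gpr20 and Dlgap3 likewise varied by less than 4 points over the 5 libraries.

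The ratio of PGC to female ESC was highest in the most methylated islands, but the ratio of PGC to pESC was not. To avoid choosing on the libraries compared, islands were chosen and grouped by their mean over the 3 libraries outside the comparison. In 181 islands of 30% to 50%, PGC was at 0.757 of female ESC (median ratio), with a median difference of -11.7 points. In 124 islands of 50% to 70% the ratio was 0.766 and the difference -16.1 points. In 48 islands of 70% or more the ratio was 0.84 and the difference -12.9 points. For PGC against pESC, islands grouped in the same way had median ratios of 0.906, 0.854 and 0.879 from the lowest band up.

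At imprinted genes the libraries took another order. Of 28 measured islands at the imprinted gene list, 10 were members. Their medians were 56.3% in pESC-PGCLC, 15.6% in ESC-PGCLC, 50.9% in PGC, 60.3% in pESC and 21.2% in female ESC. pESC minus female ESC had a median of 36.0 points, with 9 of 10 higher, and pESC-PGCLC minus ESC-PGCLC one of 40.1 points, also with 9 of 10 higher. The exception in both was the second Trappc9 island. The choice of members favours this pattern: at 8 of the 10, the mean of ESC-PGCLC and female ESC was under 30%, so they were members only through the other libraries. Over all 28 measured islands, pESC minus female ESC had a median of 14.5 points, with 21 higher, 15 of them by at least 10 points, and 0 lower by that much. Among the 18 islands under the threshold the median was 0.229 points, with 6 higher by at least 10 points, among them Peg10, named after its values were seen, with 34.3% in pESC-PGCLC, 3.22% in ESC-PGCLC, 33.1% in PGC, 39.1% in pESC and 3.25% in female ESC. Of 8 measured islands at genes of the paternally methylated list, 0 were members.

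The island of Airn, the noncoding RNA that silences Igf2r on the paternal copy, had the widest gap of all members. It had 62.1% in pESC-PGCLC, 1.03% in ESC-PGCLC, 52.1% in PGC, 61.2% in pESC and 2.01% in female ESC. This 1049-bp island on chromosome 17 was nearly free of methylation in female ESC and ESC-PGCLC alone. Kcnq1ot1, a long noncoding RNA transcribed antisense to Kcnq1, had 75.02% in pESC-PGCLC, 20.5% in ESC-PGCLC, 61.7% in PGC, 67.7% in pESC and 16.6% in female ESC.

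Peg3, a paternally expressed zinc-finger gene, had 58.8% in pESC-PGCLC, 12.2% in ESC-PGCLC, 50.3% in PGC, 65.7% in pESC and 36.2% in female ESC. Nap1l5, a retrogene inside Herc3, had 53.4% in pESC-PGCLC, 14.5% in ESC-PGCLC, 46.0% in PGC, 56.1% in pESC and 22.8% in female ESC. In both, female ESC and ESC-PGCLC lay below the other 3 libraries. Gnas, the locus of the stimulatory G protein subunit, held 2 members. The 2181-bp island of Gnas had 56.0% in pESC-PGCLC, 13.2% in ESC-PGCLC, 51.5% in PGC, 58.4% in pESC and 19.7% in female ESC.

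The Trappc9 gene held both kinds of island. The 586-bp island at Peg13, a noncoding RNA within Trappc9, had 74.2% in pESC-PGCLC, 33.0% in ESC-PGCLC, 63.2% in PGC, 77.8% in pESC and 36.9% in female ESC. A second, 452-bp island in Trappc9 had 56.6% in pESC-PGCLC, 60.2% in ESC-PGCLC, 56.8% in PGC, 59.3% in pESC and 66.2% in female ESC. Here female ESC was the highest library, as at most members, and pESC-PGCLC the lowest, just below PGC. Inpp5f, a phosphoinositide phosphatase gene, had 41.8% in pESC-PGCLC, 16.7% in ESC-PGCLC, 35.2% in PGC, 48.6% in pESC and 26.1% in female ESC. Impact had 47.1% in pESC-PGCLC, 21.0% in ESC-PGCLC, 39.8% in PGC, 49.4% in pESC and 18.96% in female ESC. Both kept the low pair of ESC-PGCLC and female ESC.

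Germline genes supplied 9 of the 32 gene-start members. The meiosis list gave 3 of 22 measured islands (13.6%) and the piRNA list 1 of 11 (9.09%). The testis list gave 5 of 22 (22.7%). Over all islands 2.64% were members, and at gene starts 0.347%. The lists were chosen with earlier results of these data known, so these shares are not read as enrichment. The 9 members had medians of 45.4% in pESC-PGCLC, 48.0% in ESC-PGCLC, 41.2% in PGC, 49.0% in pESC and 54.4% in female ESC. PGC minus female ESC had a median of -13.9 points, with 9 of 9 lower and 8 of them by at least 10 points. The other 19 gene-start members outside the imprinted list had a median of -15.9 points in the same comparison.

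Stra8, the retinoic acid-induced gene of meiotic entry, had 34.1% in pESC-PGCLC, 47.2% in ESC-PGCLC, 35.0% in PGC, 34.8% in pESC and 48.5% in female ESC. Sycp3, a component of the synaptonemal complex, had 45.4% in pESC-PGCLC, 48.0% in ESC-PGCLC, 41.2% in PGC, 49.0% in pESC and 54.4% in female ESC. For Stra8 the female ESC line and its derivative were the high libraries, whereas Sycp3 followed the common order. Syce3, another component of that complex, had 38.7% in pESC-PGCLC, 35.9% in ESC-PGCLC, 33.7% in PGC, 33.0% in pESC and 47.9% in female ESC.

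Fkbp6 had 46.3% in pESC-PGCLC, 53.6% in ESC-PGCLC, 43.1% in PGC, 50.4% in pESC and 57.0% in female ESC. Dpep3 had 59.3% in pESC-PGCLC, 69.2% in ESC-PGCLC, 54.4% in PGC, 69.4% in pESC and 74.5% in female ESC. In both, PGC was the low end and female ESC the high end. Slc25a31 had 32.8% in pESC-PGCLC, 40.05% in ESC-PGCLC, 36.2% in PGC, 35.2% in pESC and 43.2% in female ESC, and here pESC-PGCLC was the lowest.

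Pdha2, the testis form of a pyruvate dehydrogenase subunit, had 68.4% in pESC-PGCLC, 77.3% in ESC-PGCLC, 67.3% in PGC, 79.0% in pESC and 81.5% in female ESC. It was the most methylated member of the germline lists in each library. Actl7b, an actin-like protein of the testis, had 54.7% in pESC-PGCLC, 62.0% in ESC-PGCLC, 53.5% in PGC, 58.5% in pESC and 67.2% in female ESC. An alpha-tubulin gene of the testis, Tuba3a, had 32.3% in pESC-PGCLC, 42.5% in ESC-PGCLC, 30.6% in PGC, 37.1% in pESC and 47.3% in female ESC.

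**Figure D5:**
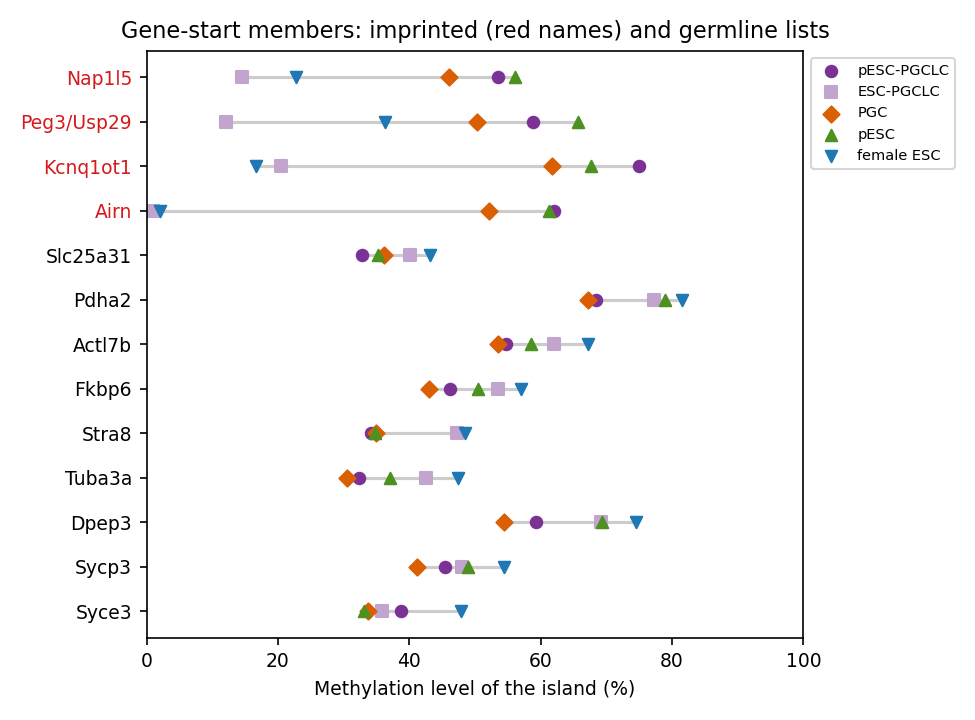
Methylation level in percent (horizontal axis) in the 5 libraries, 1 marker each, of the gene-start members of the imprinted list (red names) and the germline lists (black names), with a grey line over the gap. Female ESC is the rightmost marker at all 9 germline genes, whose medians are 41.2% in PGC and 54.4% in female ESC, and ESC-PGCLC and female ESC are the leftmost at the imprinted genes.

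Further gene starts with germline roles lay outside the lists and were picked after their values were seen. H1f7, the spermatid linker histone, had 68.6% in pESC-PGCLC, 75.6% in ESC-PGCLC, 61.4% in PGC, 75.8% in pESC and 78.9% in female ESC. Topaz1, a gene needed for male meiosis, had 33.7% in pESC-PGCLC, 35.7% in ESC-PGCLC, 31.3% in PGC, 34.6% in pESC and 40.5% in female ESC. Adad2, a testis gene of the adenosine deaminase domain family, had 29.4% in pESC-PGCLC, 37.8% in ESC-PGCLC, 31.4% in PGC, 33.9% in pESC and 45.5% in female ESC. Female ESC was the highest library in all 3.

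Tmem267, with its 1149-bp island, had 62.8% in pESC-PGCLC, 69.6% in ESC-PGCLC, 61.5% in PGC, 67.7% in pESC and 76.6% in female ESC. Lhx9 had 48.0% in pESC-PGCLC, 55.5% in ESC-PGCLC, 40.5% in PGC, 59.3% in pESC and 69.9% in female ESC. The other gene lists are read beside the 2.64% of all islands that were members. Predicted genes and pseudogenes gave the most members, 57 of 2821 measured islands (2.02%), and zinc-finger genes gave 6 of 314 (1.91%). Clustered protocadherins gave 2 of 17 (11.8%), DNA methylation machinery genes 2 of 15 (13.3%, both in Tet3) and olfactory or vomeronasal receptors 1 of 13 (7.69%), shares that rest on 1 or 2 islands each. Hox genes gave 0 of 62 and pluripotency and germ cell specification genes 0 of 11. The pheromone receptor gene Vmn2r29 had 44.8% in pESC-PGCLC, 49.5% in ESC-PGCLC, 35.6% in PGC, 48.6% in pESC and 54.7% in female ESC. Among the protocadherins, the island within the Pcdha cluster had 78.5% in pESC-PGCLC, 79.8% in ESC-PGCLC, 74.5% in PGC, 80.4% in pESC and 83.6% in female ESC. Pcdhb20 stood far lower, with 30.1% in pESC-PGCLC, 30.2% in ESC-PGCLC, 22.1% in PGC, 35.5% in pESC and 40.4% in female ESC.

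Zinc-finger genes did not all keep the common order. Zfp398 had 57.2% in pESC-PGCLC, 60.5% in ESC-PGCLC, 50.0% in PGC, 64.1% in pESC and 75.5% in female ESC. Zfp629 had 45.2% in pESC-PGCLC, 31.4% in ESC-PGCLC, 44.1% in PGC, 48.3% in pESC and 39.1% in female ESC, with ESC-PGCLC the lowest. In Zfp13 the 5 libraries lay between 29.5% in female ESC and 34.3% in PGC, so PGC was the high library.

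The highest means of all members lay at a mix of pseudogenes and genes. The island at Anks1b and Gm5780 had 84.4% in pESC-PGCLC, 87.8% in ESC-PGCLC, 86.4% in PGC, 87.1% in pESC and 88.6% in female ESC. Ppp1r14bl had 81.8% in pESC-PGCLC, 87.1% in ESC-PGCLC, 70.9% in PGC, 84.8% in pESC and 89.2% in female ESC. Col6a2, a collagen VI chain, had 79.2% in pESC-PGCLC, 81.3% in ESC-PGCLC, 76.1% in PGC, 81.2% in pESC and 84.7% in female ESC. Srrm2, a splicing scaffold, had 77.6% in pESC-PGCLC, 78.7% in ESC-PGCLC, 73.1% in PGC, 78.5% in pESC and 81.3% in female ESC in a 1028-bp island, which makes it long as well as highly methylated. PGC was the lowest library at all of these except the Anks1b island.

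Islands overlapping a RefSeq pseudogene were counted after values were seen. Of 228 such islands, 34 were members (14.9%), against 2.64% of all islands. These 34 are all among the 57 members at predicted genes and pseudogenes given above, and include the island within the Pcdha cluster. Their medians were 44.1% in pESC-PGCLC, 48.8% in ESC-PGCLC, 42.5% in PGC, 49.6% in pESC and 59.7% in female ESC, and 32 of 34 were lower in PGC than in female ESC. Gm15784 had 84.2% in pESC-PGCLC, 87.5% in ESC-PGCLC, 77.2% in PGC, 86.8% in pESC and 88.2% in female ESC. Reads of a pseudogene can be shared with its parent gene, so levels at these islands are uncertain.

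Shores, the flanks of the islands, were not used to choose the members. An adjoining shore was listed in all 5 libraries for 308 members, giving 432 shores. Their medians were 45.7% in pESC-PGCLC, 48.4% in ESC-PGCLC, 42.4% in PGC, 49.9% in pESC and 55.6% in female ESC. The 14440 shores of the other islands had 4.11% in pESC-PGCLC, 3.90% in ESC-PGCLC, 3.86% in PGC, 3.87% in pESC and 3.91% in female ESC. As a set, the shores of the members had medians near those of the member islands, in the same order of libraries. Single shores could lie far from their island. At Tmem125 the island had 88.1% and its shores a mean of 5.60% in female ESC.

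The shore differences gave the same signs as the islands in all 8 comparisons. These shores adjoin the chosen islands and were read in the same libraries, so they are not an independent readout. PGC minus female ESC had a median of -11.7 points, with 394 of 432 shores lower. No such count was made over the shores of other islands. pESC minus female ESC had -4.95, ESC-PGCLC minus female ESC -5.75 and pESC-PGCLC minus pESC -3.01. Among intragenic islands alone, 307 member shores had 46.6% in pESC-PGCLC, 49.1% in ESC-PGCLC, 43.3% in PGC, 50.5% in pESC and 57.0% in female ESC. The 1844 shores of other intragenic islands had 8.14% in pESC-PGCLC, 7.62% in ESC-PGCLC, 7.75% in PGC, 8.20% in pESC and 8.94% in female ESC.

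Outside CpG sites the members had low levels, slightly above those of the other islands in every library. The median CHH level was 0.774% in pESC-PGCLC, 0.805% in ESC-PGCLC, 0.722% in PGC, 0.625% in pESC and 0.657% in female ESC over 355 members. The other islands had 0.695% in pESC-PGCLC, 0.723% in ESC-PGCLC, 0.655% in PGC, 0.568% in pESC and 0.582% in female ESC. CHG sites had a median level of 0.993% in pESC-PGCLC, 1.01% in ESC-PGCLC, 0.926% in PGC, 0.845% in pESC and 0.884% in female ESC over 357 members. The other islands had CHG medians of 0.767% in pESC-PGCLC, 0.8% in ESC-PGCLC, 0.721% in PGC, 0.646% in pESC and 0.656% in female ESC. The gap between members and other islands was wider for CHG than for CHH in each library. Such levels include unconverted cytosines, and no conversion rate is stated in the labels.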

How the data were processed

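Reduced representation bisulfite sequencing gave 5 libraries, 1 per group. The authors deposited, per region and cytosine context, a methylation level as a fraction from 0 to 1, with a region class. Per the submitters' processing notes, Bismark 0.16.3, Bowtie2 and mm10 were used; the sources used here give no trimming, coverage filter or island definition. The files hold no read counts, so depth, intervals and tests were not available, and no paired or replicate analysis exists. Levels are printed as percent and differences as percentage points, first library minus second, called at 10 or 25 points with no test.

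Coordinates are as deposited, with no stated counting base, and length is end minus start. Genes, starts and sequences came from RefSeq GRCm38.p6; a gene start or end lay within 1000 bp, and strand came from the promoter table. Off-autosome islands and 368 autosomal islands not listed in all 5 libraries were left out. Named islands are all members at imprinted-list genes, up to 10 per direction past 25 points in a comparison, the 6 of widest and narrowest gap, greatest length and highest mean, up to 4 per other list and the 3 on either side of the threshold; any other was chosen after its values were seen. Members and lists were chosen with earlier results of these data known. The counting was tested on simulated data, with Python 3.11.15, pandas 2.3.3 and numpy 2.4.6. Alternatives tried were a mean of 40%, choosing on the 3 other libraries, islands of at least 400 bp, no level at exactly 0 or 1, subtracting CHH, leaving out imprinted islands, the mean for the median, distances of 500 and 2000 bp, protein-coding genes only and length tertiles.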

Additional observations from a re-analysis of the deposited data

Results flagged for a closer look

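The 2 induction changes went in opposite directions, by at least 10 points each, at 2 members, and this difference was not tested. No such count was made over all islands, and levels at pseudogene islands are uncertain, as said above. The island at the pseudogene Gm5522 on chromosome 1 had 17.8% in pESC-PGCLC and 34.6% in pESC, a difference of -16.8 points, whereas ESC-PGCLC had 39.4% and female ESC 28.9%, a difference of 10.5 points. The island at Speg, a kinase of striated muscle, had 41.6% in pESC-PGCLC and 29.5% in pESC, a difference of 12.2 points, whereas ESC-PGCLC had 30.6% and female ESC 54.4%, a difference of -23.8 points.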

How the results depend on the processing

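Of 60 alternative values, 8 left out islands at exactly 0% or 100%, removed no member and so repeat the reported value by construction. The other 52 kept their sign and stayed within 1.5 times the value reported. A coverage minimum was not run, because the files hold no coverage, and no replicate was left out. No paired analysis was possible because each group has 1 library. The number of reads behind each island is unknown, so no level has a counting error.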
